A study of Homo sapiens with 2 samples.

Results

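Human chromosome 19 holds the densest set of C2H2 zinc finger genes in the genome. Its protein-coding genes named ZNF with a number and at most 1 letter were taken from the annotation in the deposited tables, and 246 of 58735 listed genes met that rule. RNA sequencing compared 1 library of BHT101 cells with SETDB2 overexpression and 1 control library of the same line. BHT101 was derived from an anaplastic thyroid carcinoma, and both cultures grew in DMEM with fetal bovine serum. SETDB2 is a SET domain protein related to SETDB1 and is classed as a methyltransferase of histone H3 at lysine 9, and the series title ties it to the splicing factor U2AF1. The labels do not say what vector or promoter drove SETDB2, whether the cells were 1 clone, or what the control cells received. With 1 library per condition no p-value can be given, every interval covers counting error only, and a difference between the libraries cannot be told apart from one between cultures or preparations.

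Most C2H2 zinc finger proteins encoded here carry a KRAB domain, which binds the corepressor TRIM28. TRIM28 in turn brings the methyltransferase SETDB1 and HP1 proteins to the bound DNA, where histone H3 is methylated at lysine 9. Many of these proteins recognise retroelements, and their own genes, which arose by tandem duplication, carry the same mark over the exons that encode the fingers in several human cell types. No histone mark was measured here, and the values below are transcript levels only.

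Members were put in order of gene start, and a new cluster was opened where consecutive starts lay over 1 Mb apart. This gave 9 clusters of at least 5 members, named C1 to C9 from the short arm end onward, and 11 outlying members. C4, from 19.7 to 24.1 Mb, held 37 members. C8, from 51.6 to 53.6 Mb, held 39, and C9, from 55.5 to 58.5 Mb, held 59. The tables class 238 of the 246 as C2H2 zinc finger factors, and the other 8, among them ZNF229 and ZNF761, carry no class there. Coordinates are on GRCh38, and start, end and strand matched GENCODE release 29 for every listed gene.

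RefSeq promoter windows were found for 215 of the 246 members, 177 of them within 500 bases of the gene's start in the tables, and the 250 bases before the RefSeq start were compared. The sequences shown belong to members whose ratios are described further on. ZNF681 and ZNF626 were at least 2-fold higher and ZNF66 had the lowest ratio among the 203 members with a summed count of at least 50, all 3 in C4. ZNF441 in C3 and ZNF805 in C9 were lower, and ZNF587 in C9 was higher. They are from GRCh38.p14 and run 5′ to 3′, and capitals mark a match on either strand to the 7-base word CCAATCA, to the 6-base word TTCCGG or to the 9-base word CTACATTAC. The windows are chr19:23758892-23759141 on the minus strand for ZNF681, chr19:20661572-20661821 on the minus strand for ZNF626, chr19:20776054-20776303 on the plus strand for ZNF66, chr19:11766750-11766999 on the plus strand for ZNF441, chr19:57240382-57240631 on the plus strand for ZNF805 and chr19:57849609-57849858 on the plus strand for ZNF587.
ZNF681: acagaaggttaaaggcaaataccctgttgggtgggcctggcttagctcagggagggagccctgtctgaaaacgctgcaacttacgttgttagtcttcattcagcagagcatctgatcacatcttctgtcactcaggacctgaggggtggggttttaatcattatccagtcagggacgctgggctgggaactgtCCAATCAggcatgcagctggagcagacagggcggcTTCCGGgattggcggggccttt
ZNF626: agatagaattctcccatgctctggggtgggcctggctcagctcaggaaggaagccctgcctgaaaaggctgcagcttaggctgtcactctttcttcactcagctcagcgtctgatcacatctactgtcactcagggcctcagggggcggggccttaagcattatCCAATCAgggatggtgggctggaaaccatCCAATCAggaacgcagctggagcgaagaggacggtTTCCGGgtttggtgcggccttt
ZNF66: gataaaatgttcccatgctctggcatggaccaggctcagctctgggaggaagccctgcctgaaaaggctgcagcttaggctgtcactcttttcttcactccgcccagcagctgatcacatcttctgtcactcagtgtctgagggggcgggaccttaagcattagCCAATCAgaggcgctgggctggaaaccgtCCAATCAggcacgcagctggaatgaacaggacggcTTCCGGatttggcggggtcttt
ZNF441: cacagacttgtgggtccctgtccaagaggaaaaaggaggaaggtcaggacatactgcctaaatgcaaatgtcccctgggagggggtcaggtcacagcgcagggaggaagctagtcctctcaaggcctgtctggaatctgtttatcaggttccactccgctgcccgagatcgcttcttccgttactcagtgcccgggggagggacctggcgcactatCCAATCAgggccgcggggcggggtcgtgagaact
ZNF805: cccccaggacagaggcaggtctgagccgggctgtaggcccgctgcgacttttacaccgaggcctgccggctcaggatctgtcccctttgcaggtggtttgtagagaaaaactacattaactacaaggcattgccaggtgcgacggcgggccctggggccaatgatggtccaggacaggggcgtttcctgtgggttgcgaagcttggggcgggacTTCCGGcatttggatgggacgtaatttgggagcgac
ZNF587: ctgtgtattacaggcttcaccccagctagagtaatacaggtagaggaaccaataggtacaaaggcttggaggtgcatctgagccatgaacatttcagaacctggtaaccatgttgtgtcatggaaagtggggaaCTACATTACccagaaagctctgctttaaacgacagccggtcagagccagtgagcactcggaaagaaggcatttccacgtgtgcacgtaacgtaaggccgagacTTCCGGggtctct

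The windows of C4 resemble each other. ZNF626 matched ZNF66 at 86.0% and ZNF681 at 76.8% of bases. The median identity over 406 pairs within C4 was 75.6%, against 45.6% between C4 and the other clusters. In the other 8 clusters the median within the cluster lay between 46.0% and 51.4%, although single pairs in C3, C8 and C9 reached 86.0% or more. CpG dinucleotides were fewest in C4, with a median of 8 per window, against 18 over 14895 protein-coding promoters.

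The 3 words were chosen after the members' windows had been looked at, and both strands were searched. No word contains another. CCAATCA holds the CCAAT box that NF-Y binds. It stood in all 29 windows of C4, in 22 of 24 of C3 and in 4 of 5 of C1, beside 8.21% of all protein-coding promoters. It stood in none of the windows of C2, C5, C6 or C7, in 1 of 32 of C8 and in 2 of 54 of C9. TTCCGG holds the core that ETS factors bind, and it stood in 69.0% of C4 windows and 57.4% of C9 windows, beside 19.6% of all. CTACATTAC stood in 12 of 54 windows of C9 and 1 of 4 of C5, beside 20 of the 14895. A match says only that these letters are present in the window.

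**Figure D1:**
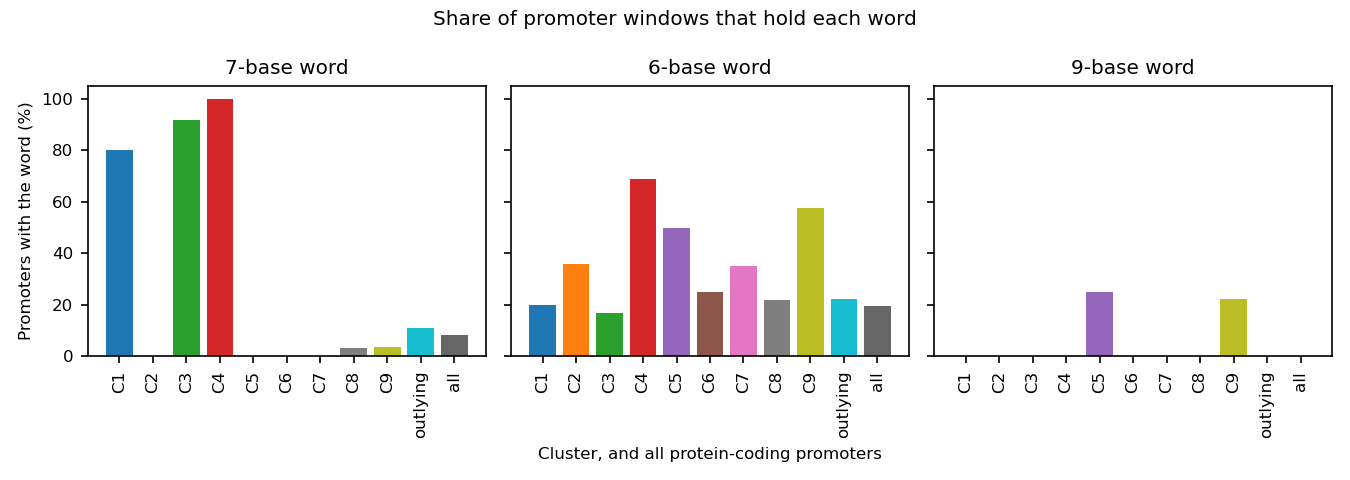
Share of 250-base promoter windows (percent, linear axis) that hold each of 3 words, for each cluster, the outlying members and all protein-coding promoters. The 7-base word CCAATCA stands in 29 of 29 windows of C4 and 22 of 24 of C3 and is rare from C5 onward, the 6-base word TTCCGG is most frequent in C4 at 69.0%, and the 9-base word CTACATTAC is found in C5 and C9 alone among the clusters.

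Log2 ratios are SETDB2 over control, from counts scaled by TMM, with the 95% counting interval in parentheses. SETDB2 itself had 1370 counts in the SETDB2 library and 507 in the control, a log2 ratio of 1.43 (1.28 to 1.58). More SETDB2 RNA per cell and more cells with the transgene cannot be told apart. The libraries held 34053348 counts for SETDB2 and 33572025 for the control, of which the members took 0.263% and 0.261%. Of 5 epithelial markers all had at least 10 counts in both libraries, and their summed FPKM was 452 in the SETDB2 library and 432 in the control. Almost all of it came from KRT8, KRT18 and KRT19. CDH1 had an FPKM of 0.47 in the SETDB2 library and 0.58 in the control, a log2 ratio of -0.31. Of 7 thyroid markers 2 reached that count, their summed FPKM was 0.24 in the SETDB2 library and 0.37 in the control, and NKX2-1 was at 0 in both. The 2 that reached it were the thyroid transcription factors PAX8, with 30 counts in the SETDB2 library and 42 in the control, and FOXE1, with 11 counts in the SETDB2 library and 21 in the control. The summed FPKM was 0.45 in the SETDB2 library and 0.63 in the control for 5 leukocyte markers. Of these only CD14 reached 10 counts in both, with 26 in the SETDB2 library and 38 in the control. PTPRC had 0 and 3. For 3 endothelial markers the summed FPKM was 0.30 in the SETDB2 library and 0.44 in the control, with CDH5 at 0 in both. PECAM1 had 74 counts in the SETDB2 library and 110 in the control, a log2 ratio of -0.58. For 4 fibroblast markers the summed FPKM was 22.3 in the SETDB2 library and 16.8 in the control, almost all of it LUM. PDGFRA had 450 counts in the SETDB2 library and 433 in the control, and COL3A1 had 0 and 1. The part of these differences in the results was not tested.

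Most members were expressed at low levels. FPKM, which is set per length and so can be compared between genes, had a median over all 246 members of 1.38 in the SETDB2 library and 1.35 in the control. It was over 5 for 15 members in the SETDB2 library and 17 in the control, and 25 members in the SETDB2 library and 19 in the control were listed at 0. A count of 0 allows up to 0.0881 counts per 1e+06 in the SETDB2 library and 0.0894 in the control.

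ZNF146, which consists almost wholly of zinc fingers and has no KRAB domain, stood far above the rest, with an FPKM of 46.1 in the SETDB2 library and 45.4 in the control. ZNF581 had an FPKM of 11.2 in the SETDB2 library and 12.6 in the control. ZNF787 had an FPKM of 11.8 in the SETDB2 library and 11.5 in the control. The levels of the next genes were lower by steps. ZNF480 had an FPKM of 9.76 in the SETDB2 library and 7.9 in the control. For ZNF317 the FPKM was 7.98 in the SETDB2 library and 8.14 in the control, and for ZNF302 it was 6.9 in the SETDB2 library and 7.33 in the control. Of these 6, ZNF480 and ZNF581 had intervals of the log2 ratio that excluded 0, at 0.30 (0.19 to 0.40) and -0.18 (-0.33 to -0.03). ZNF581 shares 23.4% of its exon bases with ZNF580 on the same strand, and with ZNF580 added the log2 ratio was -0.11 (-0.24 to 0.02).

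Levels differed between clusters. The median FPKM over all members of C4 was 0.56 in the SETDB2 library and 0.48 in the control. For C3 it was 0.39 in the SETDB2 library and 0.37 in the control, the lowest of the 9 clusters in both. Some counts in C3 are uncertain, since the counting rule for shared reads is not stated. ZNF709, ZNF564, ZNF625, ZNF490 and ZNF20 share 76.4%, 65.85%, 63.7%, 61.3% and 53.3% of their exon bases with a further gene on the same strand. The median FPKM of the larger clusters C8 and C9 was higher. For C8 it was 2.24 in the SETDB2 library and 1.93 in the control. C9 was at a like level, with 2.17 in the SETDB2 library and 2.37 in the control.

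A summed count of at least 50 over both libraries was reached by 203 of the 246 members, a filter that takes no account of how the counts are split. Of the 43 below it, 14 were in C4 and 12 in C3, and 18 had no count in either library. The 7 of these in C4 were ZNF729, ZNF98, ZNF492, ZNF99, ZNF723, ZNF728 and ZNF730. A low count or a 0 is uncertain where a gene shares most of its exon bases with another. This holds for ZNF709, ZNF564 and ZNF20 among the 43, and for ZNF177 and ZNF625, which had no count. ZNF177 shares 90.8% of its exon bases with ZNF559-ZNF177 on the same strand, and ZNF625 shares 63.7% with ZNF625-ZNF20.

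Over the 203 members the median log2 ratio was 0.03, beside 0.00 over all 14859 genes kept. The ratio lay above 0 for 112 members and below 0 for 91, which is 55.2% above, beside 50.3% of all genes kept. Summed over all members the counts were 89516 in the SETDB2 library and 87531 in the control, a log2 ratio of 0.03 (0.01 to 0.04). With the trend of the ratio over GC content removed, the median was -0.01 and the ratio of sums -0.02, so both changed sign. Individual ratios ran from -0.99 to 1.38, with the 25% and 75% points at -0.13 and 0.20.

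ZNF681 and ZNF626, or 0.985% of the 203, were at least 2-fold higher with an interval that excluded equality, beside 1.04% of all genes kept. No member was at least 2-fold lower, beside 1.57%. At 1.5-fold, 4 members were higher (1.97%) and 7 lower (3.45%), beside 2.99% and 4.97% of all genes kept. Intervals lay wholly above 0 for 37 members (18.2%) and wholly below 0 for 30 (14.8%), beside 25.7% and 24.1%. The members had fewer counts, with a median summed count of 605 beside 1530 over all genes kept, and so wider intervals. All these shares were near or below those of all genes kept.

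ZNF681 (ENSG00000196172, chromosome 19, 23739195 to 23758891, minus strand) had 40 counts in the SETDB2 library and 15 in the control, a log2 ratio of 1.38 (0.52 to 2.37). ZNF626 (ENSG00000188171, chromosome 19, 20620061 to 20661596, minus strand) had 126 counts in the SETDB2 library and 59 in the control, a log2 ratio of 1.08 (0.63 to 1.56). Both encode C2H2 zinc finger proteins, and both transcripts were rare. The FPKM of ZNF681 was 0.18 in the SETDB2 library and 0.07 in the control, and that of ZNF626 was 0.56 in the SETDB2 library and 0.26 in the control. Of 75-base pieces sampled along their longest transcripts, 99.6% for ZNF681 and 95.3% for ZNF626 were found in no other gene. With the GC trend removed ZNF626 was at 0.97, just short of 2-fold, and ZNF681 at 1.24.

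ZNF66, the next member after ZNF626 in gene order, went the other way, with 24 counts in the SETDB2 library and 48 in the control. Its log2 ratio was -0.99 (-1.78 to -0.27), just short of 2-fold, and -1.09 with the GC trend removed. It lies at 20776304 to 20807322 on the plus strand, and all its pieces were unique to it. The highest and the lowest of the 203 ratios were therefore found in the same cluster, at genes whose promoter windows matched at 74.8% of bases.

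**Figure D2:**
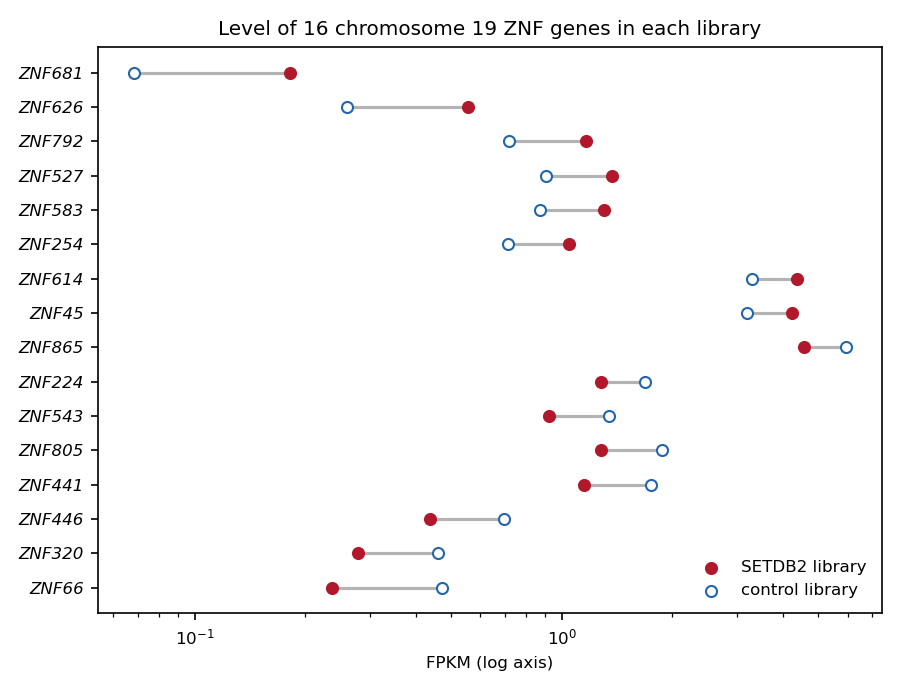
FPKM (log axis) of the 8 higher and 8 lower members whose counting interval lay farthest from equality, with a filled point for the SETDB2 library and an open point for the control. ZNF681 (0.18 and 0.07) and ZNF626 (0.56 and 0.26) lie at low levels and are farthest apart, while ZNF614 (4.38 and 3.30) and ZNF45 (4.22 and 3.19) differ less at higher levels.

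The 8 higher members whose interval lay farthest from 0 were spread over 6 clusters. ZNF681, ZNF626 and ZNF254 lie in C4, which holds 23 of the 203 members kept. ZNF792 in C5 had 166 counts in the SETDB2 library and 103 in the control, a log2 ratio of 0.68 (0.32 to 1.05). ZNF527 in C6 had 297 counts in the SETDB2 library and 197 in the control, a log2 ratio of 0.58 (0.32 to 0.85). ZNF583 in C9 had 354 counts in the SETDB2 library and 237 in the control, a log2 ratio of 0.57 (0.33 to 0.82). No sampled piece of these 3 transcripts matched another gene. ZNF254 in C4 had 268 counts in the SETDB2 library and 184 in the control, a log2 ratio of 0.53 (0.26 to 0.81). ZNF614 in C8 had 861 counts in the SETDB2 library and 648 in the control, a log2 ratio of 0.40 (0.25 to 0.55). ZNF45 in C7 had 627 counts in the SETDB2 library and 474 in the control, a log2 ratio of 0.40 (0.22 to 0.57). The fourth member past 1.5-fold, ZNF114 among the outlying genes, was named after its values were seen, and it had 36 counts in the SETDB2 library and 20 in the control, a log2 ratio of 0.83 (0.01 to 1.71).

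Of the 8 lower members chosen in the same way 4 lie in C9, which holds 56 of the 203 members kept. ZNF441 in C3 had 184 counts in the SETDB2 library and 281 in the control, a log2 ratio of -0.62 (-0.89 to -0.34). ZNF805 in C9 had 109 counts in the SETDB2 library and 160 in the control, a log2 ratio of -0.56 (-0.92 to -0.20). Its near neighbour ZNF543 had 114 counts in the SETDB2 library and 166 in the control, a log2 ratio of -0.55 (-0.91 to -0.20). These 3 transcripts had at least 97.2% of their pieces to themselves. ZNF865, also in C9, had 617 counts in the SETDB2 library and 807 in the control, a log2 ratio of -0.39 (-0.55 to -0.24). It is the member kept with the highest GC content, 71.1%, and with the GC trend removed its ratio was -0.19.

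Several lower members share sequence with further genes. ZNF320 in C8 had 78 counts in the SETDB2 library and 129 in the control, a log2 ratio of -0.73 (-1.16 to -0.32), but 72.5% of its exon bases also belong to ZNF468 on the same strand and 0.784% of its pieces were unique. ZNF320 and ZNF468 together had 948 counts in the SETDB2 library and 966 in the control, a log2 ratio of -0.03 (-0.16 to 0.10). ZNF468 held 870 of these counts in the SETDB2 library and 837 in the control, so the sum says little about ZNF320 itself. ZNF446 in C9 had 73 counts in the SETDB2 library and 116 in the control, a log2 ratio of -0.67 (-1.12 to -0.24), with 43.5% of its pieces unique. It overlaps ZNF324 on the same strand and SLC27A5 on the opposite one, and with ZNF324 added the counts were 506 in the SETDB2 library and 615 in the control, a log2 ratio of -0.29 (-0.46 to -0.12). ZNF224 in C7, a repressor of the aldolase A gene, had 306 counts in the SETDB2 library and 404 in the control, a log2 ratio of -0.41 (-0.63 to -0.19), with 52.2% of its pieces unique and 40.5% of its exon bases opposite AC021092.1. The counts of these genes are uncertain, since the counting rule for shared reads and the use of strand are not stated.

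The other 3 members at least 1.5-fold lower were named after their values were seen. ZNF665 in C8 had 37 counts in the SETDB2 library and 61 in the control, a log2 ratio of -0.72 (-1.36 to -0.12). ZNF497 in C9 had 35 counts in the SETDB2 library and 57 in the control, a log2 ratio of -0.70 (-1.36 to -0.08). ZNF284 in C7 had 72 counts in the SETDB2 library and 110 in the control, a log2 ratio of -0.61 (-1.07 to -0.18). ZNF497 and ZNF284 had 70.6% and 57.0% of their pieces unique. Over the 16 members with under 80% of their pieces unique the median log2 ratio was -0.17, against 0.03 over the 187 others.

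**Figure D3:**
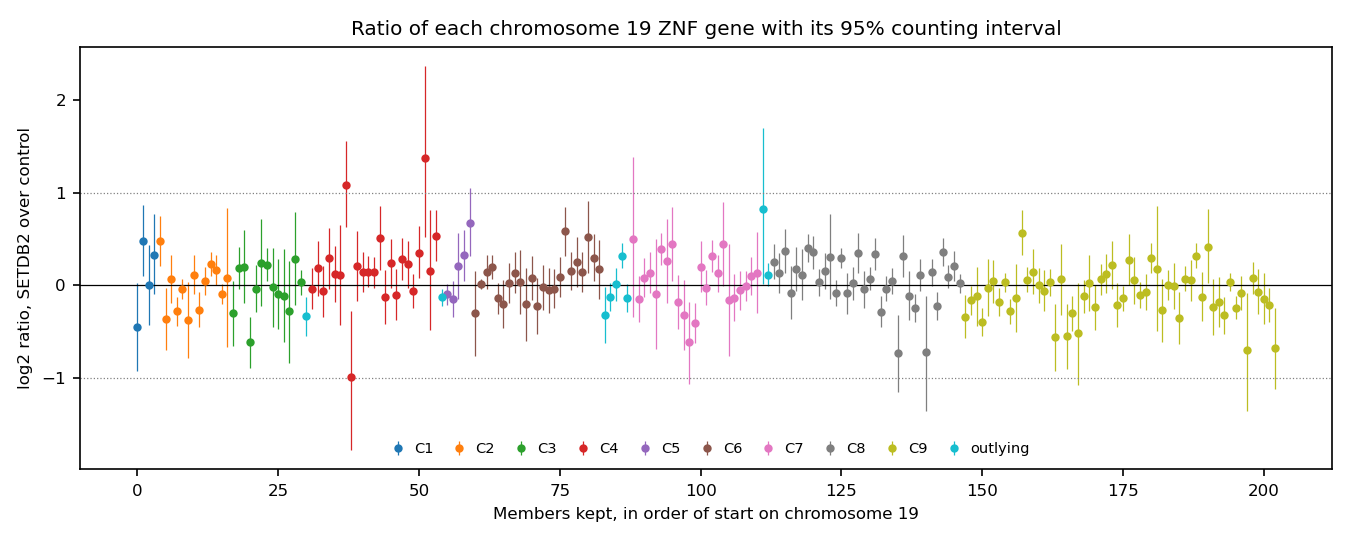
Log2 ratio of SETDB2 over control with its 95% counting interval for each of the 203 members kept, in order of start along the chromosome and coloured by cluster, with dotted lines at 2-fold. ZNF681 and ZNF626 of C4 lie above the upper line, ZNF66 of the same cluster lies at -0.99, and 34 of the 56 points of C9 lie below 0.

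Clusters differed in the side of 0 on which their members lay, by counts and medians that carry no test. In C4 the median log2 ratio was 0.16, with 17 of 23 members kept above 0. In C9 it was -0.08, with 22 of 56 above 0. These clusters lay on opposite sides of the median over all genes kept. The medians were 0.10 in C8 (23 of 34 above 0), 0.08 in C6 (15 of 23) and 0.08 in C7 (12 of 23). They were 0.05 in C2 (7 of 13) and -0.02 in C3 (6 of 13). C5 and C1, the smallest clusters, had medians of 0.21 over 5 members and 0.17 over 4, and the outlying members had -0.12 over 9.

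Summed counts gave the same order for the largest clusters. C4 had 5702 counts in the SETDB2 library and 5077 in the control, a log2 ratio of 0.16 (0.11 to 0.22). C8 had 20329 counts in the SETDB2 library and 18986 in the control, a log2 ratio of 0.09 (0.06 to 0.12). C9 had 24315 counts in the SETDB2 library and 25115 in the control, a log2 ratio of -0.05 (-0.08 to -0.03). The small cluster C5, whose median was the highest, had 2140 counts in the SETDB2 library and 2122 in the control. Its log2 ratio of sums was 0.01 (-0.08 to 0.09). Intervals of single members lay wholly above 0 for 6 and wholly below for 1 in C4, for 10 and 5 in C8, and for 5 and 15 in C9. The share above was 26.1% in C4, 29.4% in C8 and 8.93% in C9, and the share below was 4.35%, 14.7% and 26.8%, beside 25.7% and 24.1% of all genes kept. The shares above in C4 and C8 and the share below in C9 were thus near those of all genes.

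**Figure D4:**
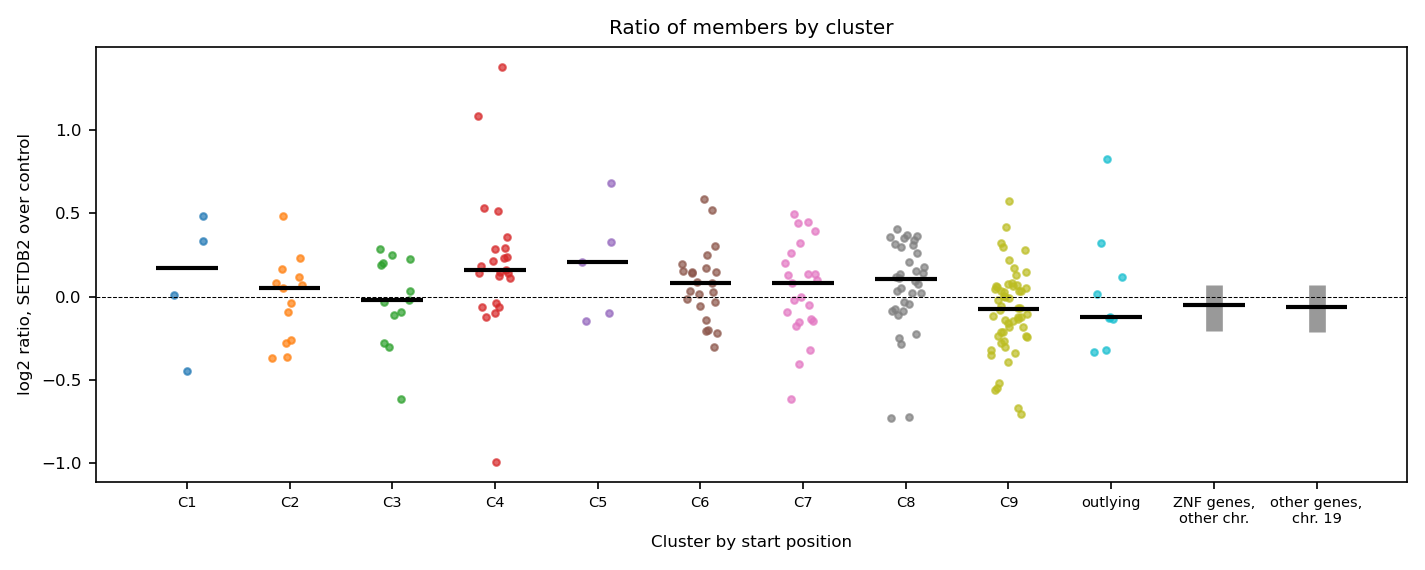
Log2 ratio of SETDB2 over control by cluster, with a point for each member kept and a bar at the median, beside the median and the range from the 25% to the 75% point (grey) of ZNF genes on other chromosomes and of other protein-coding genes of chromosome 19. The median of C4 is 0.16 and that of C9 is -0.08.

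GC content differed between C4 and C9, with a median for the longest transcript of 37.4% in C4 and 46.2% in C9. The other clusters did not follow the same order, since C1 had the highest median GC content, 46.6%, with a median ratio of 0.17, and C5 had the highest median ratio, 0.21, at 43.4%. Across the 203 members, which share the same 2 libraries, ratio and GC content had a Spearman correlation of -0.23, and over 14852 genes kept it was -0.31. The 51 members with the lowest GC content, 18 of them in C4, had a median log2 ratio of 0.12. The 51 with the highest, 29 of them in C9, had a median of -0.07. With the GC trend removed, the median was 0.06 in C4, where 17 of 23 members lay above 0, and -0.06 in C9, where 20 of 56 did. It was 0.01 in C8, 0.02 in C7, -0.01 in C6, where 10 of 23 members lay above 0, and -0.01 in C2, so that C6 and C2 changed sign. In C3 the median was then -0.10, with 5 of 13 members above 0, which is below C9. The small clusters C1 and C5 were at 0.15 and 0.16, above C4. C1 and C5 also lay above C4 before the GC trend was removed, so C4 was not the highest cluster in either case. C9 had the lowest median of the clusters before the GC trend was removed, and C3 had it afterwards. The part of GC content in the order of the clusters was not tested. Among members with a GC content between 39.9% and 46.1%, the median log2 ratio was 0.11 over 5 members of C4 and 0.01 over 26 of C9.

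**Figure D5:**
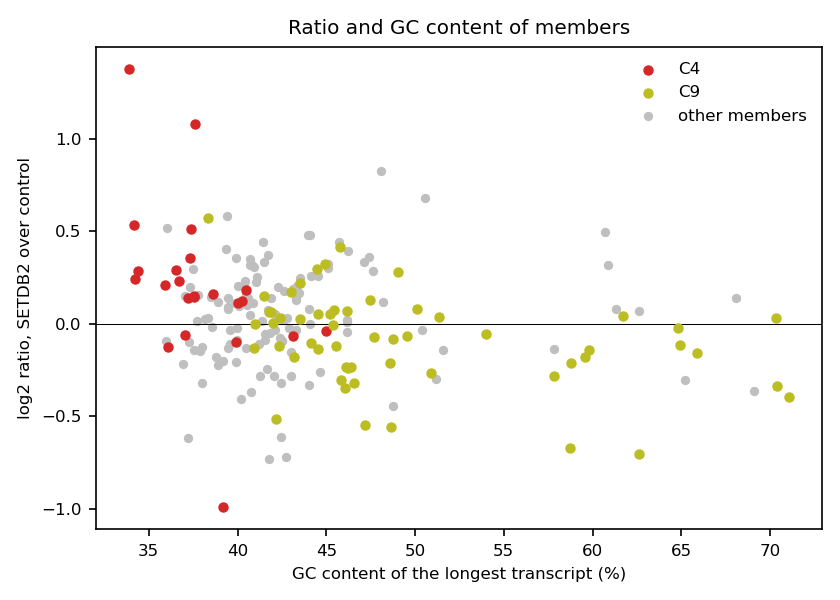
Log2 ratio of SETDB2 over control against the GC content of the longest transcript (percent) for the 203 members kept, with C4 and C9 in colour. C4 lies at the low end of GC content with 17 of 23 points above 0, while C9 extends to 71.1% with 34 of 56 points below 0.

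Some stretches of adjacent members kept lay on the same side of 0, and those given here were picked out after the values were seen, with no test. In C6 the 8 members from ZNF383 to ZNF573 (chromosome 19, 37217926 to 37817300) all lay above 0, with a median of 0.21. Their median GC content was 39.4%, and with the GC trend removed ZNF383 was at -0.003. In C8 the 7 from ZNF350 to ZNF836 (51964343 to 52171643) also lay above 0, with a median of 0.18. Their median GC content was 40.5%, and with the GC trend removed ZNF841 was at -0.02. In C7 the 4 from ZNF230 to ZNF224 (44002948 to 44109886) lay below 0, with a median of -0.36. The longest stretch below 0 in C9 was at its start, where the 5 members from ZNF628 to ZNF784 (55476332 to 55624601) had a median of -0.16 and a median GC content of 65.9%. With the GC trend removed ZNF579, ZNF524 and ZNF784 of that stretch were at 0.002, 0.04 and 0.13. The 4 from ZNF543 to ZNF548 (57320509 to 57402992) had a median of -0.41 and a median GC content of 44.1%.

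Promoter words and ratios were set side by side as a description. Members kept with CCAATCA in the window had a median log2 ratio of 0.16 over 38 genes, against 0.01 over 143 without it. The genes with the word are largely those of C3 and C4, whose own medians were -0.02 and 0.16. For TTCCGG the medians were 0.03 over 74 genes with it and 0.03 over 107 without it. Within C9 the 12 genes with CTACATTAC had a median of 0.06, with 9 above 0, against -0.13 over the 39 without it, with 12 above 0. Those without it include ZNF628, ZNF579, ZNF865 and ZNF784 at the start of C9, each with a GC content of at least 64.8%. Those with it include ZNF587 and ZNF814, which share exon bases on opposite strands. The part of GC content, position and shared exons in this difference was not tested.

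A list of 10 members reported to bind retroelements was chosen with earlier results of these data known. It does not hold every member reported to do so, and 8 of the 10 were kept. The median log2 ratio over the 8 was 0.33, or 0.27 with the GC trend removed, beside 0.00 over all genes kept. Of the 8 intervals, 5 lay wholly above 0 (62.5%) and none below, beside 25.7% and 24.1% of all genes kept, and no member reached 1.5-fold.

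Of these 5 genes 4 lie in C8. ZNF765, which binds L1 elements, had 813 counts in the SETDB2 library and 630 in the control, a log2 ratio of 0.36 (0.21 to 0.51). ZNF649, which also binds L1 elements, had 342 counts in the SETDB2 library and 263 in the control, a log2 ratio of 0.37 (0.14 to 0.61). ZNF808, which binds MER11 elements, had 397 counts in the SETDB2 library and 310 in the control, a log2 ratio of 0.35 (0.13 to 0.57). The pieces of ZNF765 and ZNF808 were 89.0% and 86.8% unique. ZNF611, which binds SVA elements, had 613 counts in the SETDB2 library and 483 in the control, a log2 ratio of 0.34 (0.16 to 0.51). ZNF587 in C9, which binds HERV-K elements, had 949 counts in the SETDB2 library and 755 in the control, a log2 ratio of 0.32 (0.18 to 0.46), with 65.2% of its pieces unique and 33.3% of its exon bases opposite ZNF814. Its near relative ZNF417 had 229 counts in the SETDB2 library and 248 in the control, a log2 ratio of -0.12 (-0.39 to 0.14).

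The best known binders, both in C4, differed little. ZNF91, which restrains SVA elements, had 478 counts in the SETDB2 library and 497 in the control, a log2 ratio of -0.06 (-0.25 to 0.12). ZNF93, which binds L1 elements, had 196 counts in the SETDB2 library and 179 in the control, a log2 ratio of 0.12 (-0.18 to 0.42). ZNF534 had no count in either library, and ZNF90 had 0 counts in the SETDB2 library and 4 in the control.

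Members reported as silenced by promoter methylation in tumours showed no shared direction. Of 11 listed, 8 were kept, 4 on each side of 0, with a median log2 ratio of -0.02 and no interval that excluded 0. ZNF331, an imprinted gene, had 1453 counts in the SETDB2 library and 1424 in the control. ZNF667 had 860 counts in the SETDB2 library and 819 in the control. ZNF471 had 310 counts in the SETDB2 library and 278 in the control. These 3 had small positive ratios, of which 0.15 for ZNF471 was the highest. ZNF671 had 136 counts in the SETDB2 library and 163 in the control, the lowest ratio of the 8 at -0.27 (-0.61 to 0.07). Counts were also low for ZNF154, with 42 counts in the SETDB2 library and 37 in the control. Its log2 ratio of 0.17 (-0.50 to 0.85) was the highest of the 8. The ratios of ZNF132, ZNF582 and ZNF568 lay at -0.07, -0.13 and -0.22. ZNF677, reported as methylated in thyroid cancer, had 0 counts in the SETDB2 library and 2 in the control. ZNF382 had 8 counts in the SETDB2 library and 10 in the control. ZNF177 had none, but that 0 is uncertain because 90.8% of its exon bases also belong to ZNF559-ZNF177.

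Factors that act with these proteins or at their genes mostly lay slightly above 0. Of 14 listed, all were kept and 12 lay above 0. Of their intervals 9 lay wholly above 0 (64.3%) and 1 below (7.14%). SETDB2 was the one gene past the 2-fold rule. It is counted in the 12 and in the 9, where its place was set by the overexpression. With the GC trend removed 10 of the 14 lay above 0, with a median log2 ratio of 0.07, against 0.10. Over all genes kept 50.3% of ratios lay above 0, and 25.7% of intervals lay wholly above 0 and 24.1% below. These factors had a median summed count of 5656, beside 1530 over all genes kept, and so narrower intervals. ZNF274, a member that brings SETDB1 to the finger exons of other zinc finger genes, had 1662 counts in the SETDB2 library and 1615 in the control, a log2 ratio of 0.03 (-0.06 to 0.13). The corepressor TRIM28 had 14865 counts in the SETDB2 library and 14050 in the control, a log2 ratio of 0.07 (0.04 to 0.11). CBX3 had the highest ratio of the list after SETDB2, at 0.29, with 16638 counts in the SETDB2 library and 13556 in the control. SETDB1 had 1741 counts in the SETDB2 library and 2232 in the control, a log2 ratio of -0.36.

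Other zinc finger genes and other genes of the chromosome had lower medians than the members. The 228 ZNF genes kept on other chromosomes had a median log2 ratio of -0.05, with 39.0% above 0, and none passed the 2-fold rule. The 678 other protein-coding genes kept on chromosome 19 had a median of -0.06, with 37.9% above 0, 1 at least 2-fold higher and 11 lower. Their median GC content was 60.2%, against 42.4% for the members and 44.7% for ZNF genes elsewhere. With the GC trend removed the medians were -0.01 for the members, -0.08 for ZNF genes elsewhere and 0.04 for the other genes of the chromosome, which then lay above the members. Of 20 measured C2H2 genes of the chromosome with names outside the rule, such as ZFP30 and ZSCAN22, 13 were kept, 6 above 0 and 7 below, with a median of -0.01.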

How the data were processed

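RNA of 1 SETDB2 and 1 control culture was sequenced. The authors deposited whole-number read counts per gene and FPKM values for each library. Each deposited FPKM equals the count over gene length and a constant close to the library total, so it adds no measurement. The submitters' processing notes list TopHat2 2.0.9, Bowtie2 2.0.6, Cuffdiff 2.1.1 and Cufflinks 2.1.1 with no role. No source used here names the counter, its use of strand, or how it treated reads with several matches.

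Counts were scaled with TMM factors (edgeR 4.0.16), and no test was run. The log2 ratio used a prior count of 0.5, with the exact Clopper-Pearson 95% interval of a ratio of 2 counts, and was checked on simulated counts. PCR copies are not independent molecules. GC content and 75-base pieces, taken every 25 bases and sought on both strands, came from the longest GENCODE 29 transcript. The GC trend was a lowess curve over all genes kept. Identity between promoter windows is from global alignment by edit distance. Named genes were members past the 2-fold rule, the 8 higher and 8 lower with the interval farthest from 0, the 6 highest in mean FPKM, 2 lists of members, ZNF274, SETDB2 and TRIM28. Other lists held silencing factors and further C2H2 genes. Members and lists were chosen with earlier results of these data known.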

Additional observations from a re-analysis of the deposited data

How the results depend on the processing

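No paired analysis was possible because each group held 1 library, and no replicate could be left out. Some of the settings below could move values little. The DESeq2 size factor was 1 in both libraries, beside TMM factors of 0.995 for SETDB2 and 1.005 for the control, and the deposited FPKM rescales the same counts. Agreement under those settings was largely set in advance and says little about stability. Of 211 recomputed summary values, 199 stayed within 1.5 times the reported count or within the rank or counting interval of the reported value, which is wide for medians over few genes, under DESeq2 1.42.0 size factors, total counts, removal of the GC trend, a prior count of 2, deposited FPKM with a pseudocount of 0.01, other filters, unique transcripts only and other cluster gaps. Values inside that interval still changed sign in 8 cases. With the GC trend removed these were the members' median (-0.01), its difference from all genes (-0.01) and the medians of C2 (-0.01) and C6 (-0.01). With a gap of 2 Mb the lowest cluster median was 0.01, against -0.08. The median of other C2H2 genes, -0.01, was 0.00 with FPKM, 0.02 where genes needed 200 counts and 0.05 with no filter. The C8 median was 0.01 with the GC trend removed, against 0.10, and that of C1, over 4 members, was 0.48 where 200 counts were needed and 0.01 with no filter, against 0.17. The values outside the interval follow. With total counts 1 member was at least 2-fold lower and the log2 ratio of summed counts was 0.0118. With the GC trend removed 1 member was at least 2-fold higher and 1 lower, the ratio of summed counts was -0.0160, the C4 median was 0.0619, and the members' median minus that of other chromosome 19 genes was -0.0463, against 0.0919. With a summed count of at least 200 there were 0 members at least 2-fold higher, and 1 higher and 2 lower at 1.5-fold. With no filter 1 was at least 2-fold lower. With at least 80% of pieces unique 3 were at least 1.5-fold lower. Among 220 values for single named genes 215 stayed within their interval, and the other 5 (TRIM28, ZNF146, ZNF480, ZNF787 and ZNF865) moved outside it with the GC trend removed. Depth limits the rare transcripts most: ZNF681 rests on 55 counts in all.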

Other observations

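Non-coding genes with ZNF names on chromosome 19 numbered 32, of which 10 reached a summed count of 50. They had a median log2 ratio of 0.16, with 7 above 0 and none past the 2-fold rule. The transcribed pseudogene ZNF542P, whose span overlaps that of the member ZNF582 on the opposite strand, had 142 counts in the SETDB2 library and 84 in the control, a log2 ratio of 0.75 (0.35 to 1.16). ZNF582 had 121 counts in the SETDB2 library and 132 in the control. ZNF528-AS1, annotated as a processed transcript, had 137 counts in the SETDB2 library and 206 in the control, a log2 ratio of -0.59 (-0.92 to -0.28). ZNF137P, another transcribed pseudogene, had 131 counts in the SETDB2 library and 112 in the control, a log2 ratio of 0.22 (-0.16 to 0.60).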
